A study of Mus musculus with 2 samples.

Results

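The C/EBP and Gfi1 granulocyte transcription factors are 7 genes, Cebpa, Cebpb, Cebpd, Cebpe, Cebpg, Ddit3 and Gfi1, taken by symbol from the 69691 gene rows of each library. All 7 had a row, and 21461 rows were nuclear protein-coding genes. Total RNA came from primary cells that the labels call megakaryocytes, of the C57BL/6J strain, male, adult and 5 to 6 weeks old. There were 2 libraries, numbered 1 and 2, that form a single group with no treatment, no engineered allele and no second condition. The labels give them as biological replicates with separate biosamples and 1 donor record for both, and do not say how many animals were pooled. Each was made from 100 ng of RNA after removal of ribosomal RNA. The size range was 221 to 1000 nucleotides in library 1, against 200 to 1000 in library 2, and cannot be told apart from the library.

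C/EBP proteins are basic leucine zipper (bZIP) factors that pair through a zipper of leucines and grip DNA with the basic stretch before it. In bone marrow, C/EBPα directs progenitors into the granulocyte and monocyte lines, C/EBPε drives the late granule genes, and C/EBPβ and C/EBPδ are raised in emergency granulopoiesis and inflammation. C/EBPγ, which lacks an activating domain, and CHOP, the product of Ddit3, whose basic region is altered, act mainly as partners of other bZIP proteins, CHOP during the stress response to unfolded proteins. Gfi1 is a zinc finger repressor that recruits histone-modifying enzymes and is required for neutrophils to form.

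The labelled cell type was checked against its markers. Of 12 megakaryocyte and platelet markers, 2 stood at 1 TPM or more in both libraries. TPM is abundance scaled to transcript length and library depth. Itgb3 was the highest at 5.79 ± 0.184 TPM (SD, n = 2), and 3 of the 12 had no counts in either library. All 17 neutrophil markers and all 9 monocyte and macrophage markers passed 1 TPM in both libraries, with list medians of 73.6 and 182 TPM, led by S100a8 at 7598 ± 469 and Lyz2 at 7000.3 ± 1458 TPM (SD, n = 2). All 7 markers of mast cells, basophils and eosinophils, led by Mcpt8, and 6 of 8 erythroid markers, led by Hba-a2, passed it, with medians of 20.8 and 8.81 TPM. T and NK cell markers passed in 4 of 6 cases and B cell markers in 1 of 6, with medians of 3.09 and 0.0375 TPM and Gzma and Cd79b as their highest members. The samples are therefore called the libraries labelled megakaryocyte. In bulk RNA, fewer cells of a type and less RNA per cell cannot be told apart. Expected counts summed to 42703213 in library 1 and 50532821 in library 2.

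The coding sequences of the 6 C/EBP genes can be set side by side, while Gfi1, a zinc finger gene, has no line here. The lines below give the 45-base in-frame stretch in which the Cebpa coding sequence matched Cebpb, Cebpd, Cebpe and Cebpg best. The best match to it follows for each of these genes and for Ddit3, which was left out of the choice. The stretch lies in the part that encodes the DNA-binding basic region, and capitals mark bases identical to Cebpa. Sequences are from GENCODE M21 transcripts.
Cebpa: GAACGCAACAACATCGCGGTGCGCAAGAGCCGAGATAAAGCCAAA
Cebpb: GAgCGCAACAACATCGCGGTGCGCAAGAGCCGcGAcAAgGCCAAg
Cebpd: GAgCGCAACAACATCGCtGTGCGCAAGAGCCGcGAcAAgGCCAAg
Cebpe: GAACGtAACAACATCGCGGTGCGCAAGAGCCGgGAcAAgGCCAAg
Cebpg: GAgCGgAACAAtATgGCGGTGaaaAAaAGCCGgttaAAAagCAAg
Ddit3: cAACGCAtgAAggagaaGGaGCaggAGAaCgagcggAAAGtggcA
Cebpb and Cebpe shared 40 of the 45 bases with Cebpa, Cebpd 39, Cebpg 30 and Ddit3 21. Cebpg thus stood apart from Cebpb, Cebpd and Cebpe in this stretch. The stretch was chosen for its likeness, so a high identity was built in, and unrelated coding sequences were not compared. The match in Ddit3 may not be its corresponding position, so its number cannot show how far its basic region differs. No 31-base word of any of the 7 genes' annotated transcripts occurred in a transcript of another of them. Words shared on the same strand with a gene of another symbol made up 0.603% of Cebpg, 0.407% of Cebpb and 0.175% of Ddit3. There were none in Cebpa, Cebpd, Cebpe and Gfi1. A second M21 gene ID of the symbol Ddit3, which overlaps it over 2925 bases on the same strand, was left out of these shares. Counted over both strands, the shared words made up 19.6% of Cebpb and 14.3% of Cebpd, 2.40% of Ddit3 and 1.65% of Gfi1, and under 1% of the other genes. On the opposite strand, Cebpb overlaps Tmem189 over 908 bases and Cebpd overlaps Spidr over 1808 bases of its M21 gene model. Gfi1 overlaps the noncoding A430072P03Rik there over 880 bases, Cebpa overlaps Gm45091 over 313 and Cebpg overlaps Gm45095 over 353. Ddit3 overlaps Mars over 68 bases and Gm4189 over 15. On its own strand, Cebpg overlaps Gm44836 over 1140 bases and Gm45094 over 617. Tmem189 had 1722 and 2417 counts, Spidr 2547 and 4138, and Mars 2052 and 2532 in libraries 1 and 2. The Cebpd transcript that gave its level is 1180 bases long, against 3746 bases for the M21 model. Whether the shorter form holds the shared words or the Spidr overlap was not tested. No statement was found on whether reads were counted by strand, so the level of Cebpb is uncertain to that extent. The level of Cebpd is uncertain to an extent that is not known. The part of the other overlaps in the levels of Cebpa, Cebpg, Ddit3 and Gfi1 was not tested.

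The 7 genes lie on 6 chromosomes of mm10. Cebpa (chromosome 7, 35119293 to 35121928) and Cebpg (chromosome 7, 35046422 to 35056573) are the only pair on one chromosome, 62719 bases apart and on opposite strands. Cebpb lies on chromosome 2 (167688915 to 167690418), Cebpd on chromosome 16 (15887286 to 15891031) and Cebpe on chromosome 14 (54710360 to 54712174). Ddit3 lies on chromosome 10 (127290774 to 127296288) and Gfi1 on chromosome 5 (107716657 to 107726036). Cebpa, Cebpb and Cebpd consist of a single exon, Cebpe has 2, and the longest structures of Cebpg, Ddit3 and Gfi1 have 2, 4 and 7.

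By level, 6 of the 7 genes reached 1 TPM in both libraries, and Gfi1 was the lowest. With TPM rescaled within nuclear protein-coding genes, which held 24.0% and 26.8% of all TPM, all 7 reached it and Gfi1 averaged 3.04 TPM. Cebpd was the highest, and Cebpg, Cebpb, Ddit3 and Cebpe followed. These 4 ran from 13.2 to 14.0 TPM in library 1 and from 11.5 to 24.0 TPM in library 2. Cebpa lay below them, and Gfi1 alone stayed under 1 TPM in both libraries as deposited. The median over the 7 genes was 13.1 TPM, against 0.28 TPM over all nuclear protein-coding genes, of which 42.4% reached 1 TPM in both libraries. All levels here are TPM, which is per transcript length, so a comparison of genes rests on that length. The deposited effective length differed most between libraries for genes with more than 1 transcript. It was 3448 and 2207 bases for Cebpg, 459 and 548 for Ddit3, and 2421 and 2532 for Gfi1. The places of these genes in the order are less certain for that reason.

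Cebpd, which encodes C/EBPδ, a factor of acute inflammation, had 32.2 TPM in library 1 and 24.3 TPM in library 2, from 3083 and 2618 counts. Its mean of 28.2 ± 5.54 TPM (SD, n = 2) ranked 1432 among the 21461 nuclear protein-coding genes. Cebpb, whose product C/EBPβ replaces C/EBPα in emergency granulopoiesis, had 13.8 and 16.4 TPM from 1767 and 2364 counts, a mean of 15.1 ± 1.83 TPM. Both libraries of Cebpd lay above both of Cebpb.

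Cebpe, the late granulocyte factor, had 13.2 TPM in library 1 and 11.5 TPM in library 2, from 1338 and 1318 counts (mean 12.3 ± 1.15 TPM, SD, n = 2). Cebpa, the factor that opens the granulocyte and monocyte path, had 5.22 and 5.91 TPM from 1261 and 1616 counts (mean 5.56 ± 0.488 TPM, SD, n = 2). The late factor was thus above the early one in both libraries, 2.52-fold in library 1 and 1.95-fold in library 2. Cebpb exceeded Cebpa 2.64-fold and 2.77-fold.

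Cebpg had 13.8 TPM in library 1 and 24.0 TPM in library 2, from 4757 and 6037 counts. Ddit3 had 14.0 and 12.2 TPM from 642 and 763 counts. Cebpg thus had the most counts of all 7 genes although Cebpd had the highest TPM. The deposited effective length, by which counts are divided, was 3448 bases for Cebpg in library 1 and 2207 in library 2, against 957 and 944 for Cebpd. Means were 18.9 ± 7.24 TPM for Cebpg and 13.1 ± 1.23 TPM for Ddit3 (SD, n = 2).

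Gfi1 had 0.92 TPM in library 1 and 0.6 TPM in library 2, from 222 and 173 counts. Exact Poisson intervals at 95% ran from 0.803 to 1.05 TPM in library 1 and from 0.514 to 0.696 TPM in library 2, so the gene was well above the limit of 3 counts, which corresponds to 0.0124 and 0.0104 TPM. Its mean of 0.76 ± 0.226 TPM (SD, n = 2) ranked 9740 among nuclear protein-coding genes. Cebpe stood 14.3-fold above Gfi1 in library 1 and 19.2-fold in library 2.

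**Figure D1:**
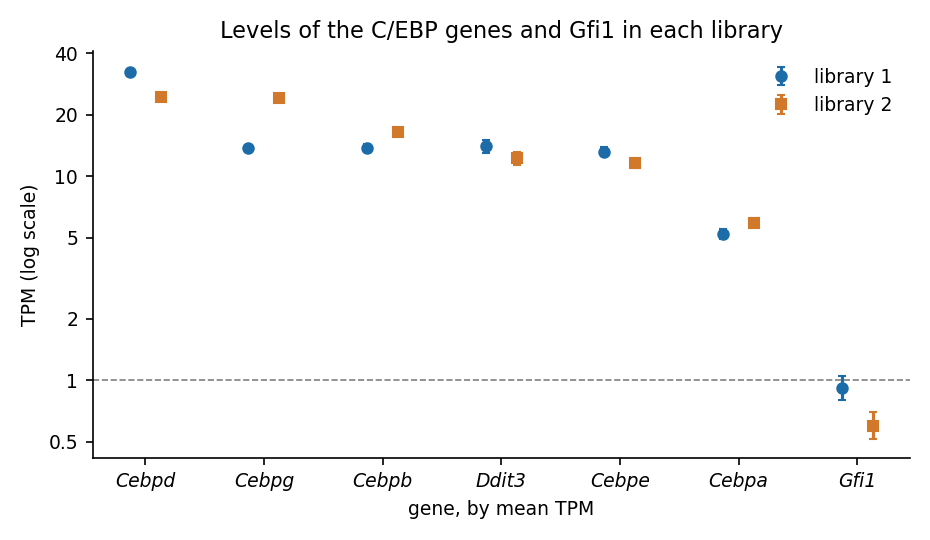
TPM (log axis) of the 7 genes in library 1 and library 2, ordered by mean TPM, with 95% Poisson intervals of the counts as bars and a dashed line at 1 TPM. Cebpd leads at 32.2 and 24.3 TPM, Cebpg has the widest gap between libraries, and Gfi1 alone lies under the line by its point values, at 0.92 and 0.6 TPM.

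Neighbours in the order of levels were apart at the low end and overlapped in the middle. Of the 21 pairs of genes, 17 did not overlap between libraries and 4 did. Neighbours that overlapped were Cebpg with Cebpb, Cebpb with Ddit3, and Ddit3 with Cebpe. Cebpd lay above Cebpg by 24.3 TPM in its lower library against 24.0 TPM in the higher library of Cebpg, both in library 2, and there the counting intervals of the pair overlapped. Cebpe stood clear of Cebpa, and Cebpa of Gfi1. With 2 libraries, an exact permutation test cannot reach 0.05, so the order is given as a description.

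Set within the bZIP family, which holds 53 genes with the 47 others listed for it, the 6 C/EBP genes filled ranks 7 to 29. Cebpd ranked 7, Cebpg 13, Cebpb 15, Ddit3 17, Cebpe 19 and Cebpa 29. Together the 6 genes held 13.4% of the family's summed TPM in library 1 and 13.04% in library 2. The highest of the others were the immediate early gene Fos at 106.9 ± 0.134 TPM, the stress factor Atf4 at 62.7 ± 6.82, the haematopoietic factor Nfe2 at 60.9 ± 1.35 and the secretory stress factor Xbp1 at 46.5 ± 6.3 (SD, n = 2). Of the 47 other bZIP genes, 30 reached 1 TPM in both libraries and their median was 5.1 TPM.

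**Figure D2:**
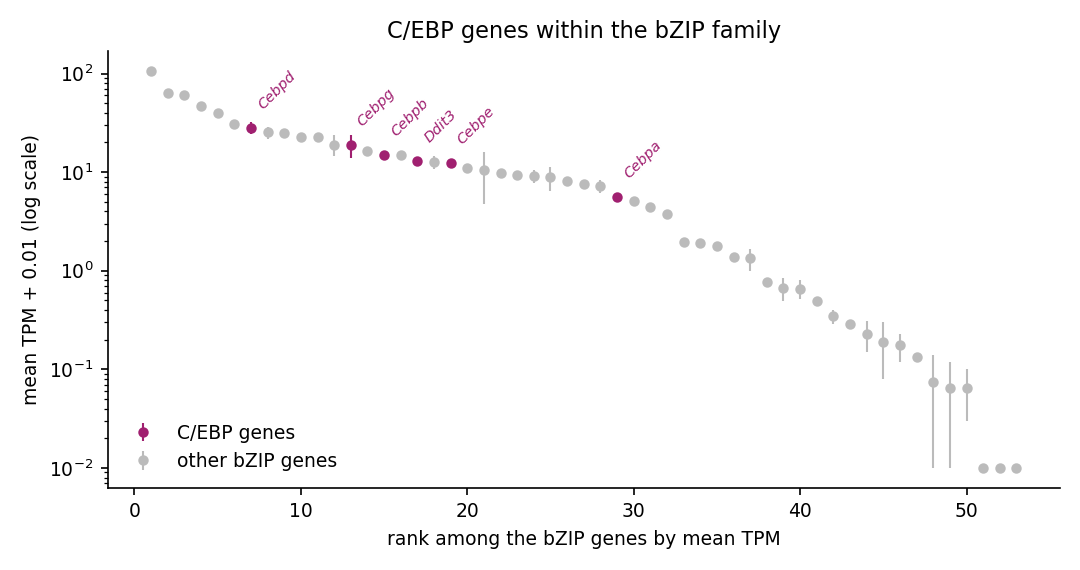
Mean TPM + 0.01 (log axis) of 53 bZIP genes by rank, with the C/EBP genes named and coloured and lines from the lower to the higher library. The C/EBP genes lie between ranks 7 and 29, and 3 other bZIP genes are listed at 0.

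Genes nearest to each factor in level were found by the distance in log2(TPM + 0.1) over the 2 libraries. They were Sppl3 and Tarbp2 for Cebpa, Sdccag8 and Nae1 for Cebpb, Cyb5a and Ear6 for Cebpd, and Khsrp and Kmt5b for Cebpe. Usp16 and Ddx49 were nearest to Cebpg, Arhgap11a and Rb1 to Ddit3, and Trmt61a and Gm1673 to Gfi1. Distances ran from 0.0085 for Sdccag8 to 0.108 for Ddx49, and a likeness over 2 libraries is no more than a like level.

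Between the libraries, the 7 genes were first compared in counts of the whole gene, and TPM and transcript shares follow further below. In scaled counts, Cebpd, Cebpe and Gfi1 were higher in library 1, Cebpb and Cebpg were higher in library 2, and no gene differed by more than 0.61 on the log2 scale. By the exact binomial test with Benjamini-Hochberg adjustment over 12081 genes, 5 of the 7 genes passed an adjusted p of 0.05, with 2 of them higher in library 2. The background is 65.6% of all genes tested, with 33.1% higher in library 2 and 32.6% higher in library 1, so the count is near the background and is no result about these genes. The test holds counting error alone and compares these libraries, not conditions, and each side is 1 library.

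Gfi1 had the lowest ratio, with a log2 ratio of library 2 over library 1 of -0.61 (95% interval -0.90 to -0.31, adjusted p = 8.2e-05, exact binomial test). Cebpd followed at -0.48 (-0.56 to -0.41, adjusted p = 6.2e-35, same exact test). For Cebpe the ratio was -0.27 (-0.38 to -0.16, adjusted p = 5.4e-06, same exact test). These 3 genes had fewer scaled counts in library 2.

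Cebpb had a log2 ratio of 0.17 (0.08 to 0.26, adjusted p = 0.000298, exact binomial test). Cebpg had 0.10 (0.04 to 0.15, adjusted p = 0.00106, same exact test). For Cebpa it was 0.11 (0.00 to 0.22, adjusted p = 0.0619, same exact test) and for Ddit3 0.00 (-0.15 to 0.16, adjusted p = 0.989, same exact test), so neither passed. When a biological coefficient of variation (BCV) of 0.1 was assumed, edgeR's exact test called 0 of the 7 genes, against 12.9% of all genes (5.65% higher in library 2 and 7.23% in library 1). At an unadjusted p under 0.05 there were 2 of the 7, against 21.8% of all genes. With DESeq2 size factors 5 of the 7 were called, against 65.7% of all genes (33.2% and 32.5%), and with total counts 5, against 65.7% (31% and 34.6%). Without a count filter 5 were called, against 63.7% (32.6% and 31.1%), and at a mean count of at least 100 there were 5, against 66.3% (33.2% and 33.1%). The common BCV that edgeR estimated from these libraries was 0.241.

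Cell type markers also differed between the libraries, by the same counting-error test that called 65.6% of all genes. By direction, it called 33.1% of all genes higher in library 2 and 32.6% higher in library 1. Of 17 neutrophil markers, 12 were called higher in library 1 and 1 higher in library 2. Of 9 monocyte and macrophage markers, 8 were called higher in library 2 and 1 higher in library 1. Summed TPM of the neutrophil list was 15023 in library 1 and 14197 in library 2, and that of the monocyte list was 7756 and 10152. Few genes set these sums. Lyz2 alone had 5969 and 8031 TPM, S100a8 had 7266 and 7929, and S100a9 had 4471 and 3427. All 6 T and NK cell markers and 7 of 8 erythroid markers were called higher in library 1. The part of these differences, and of the differing size ranges, in the ratios of Cebpd, Cebpe, Gfi1, Cebpb and Cebpg was not tested.

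Cebpg parted between level and count. Its scaled counts in library 2 were 1.07-fold those of library 1. Its deposited TPM was 1.74-fold, and its TPM within nuclear protein-coding genes, the closer counterpart of the scaled counts, was 1.56-fold. The gene has 2 transcripts in the tables, a short one of 890 bases and a long one of 4639 bases. The short one held 25.8% of the gene's TPM in library 1 and 58.6% in library 2, and the long one held 74.2% and 41.4%. In counts, the short one had 237.5 and 1049 and the long one 4520 and 4988. In scaled counts the short transcript was thus 3.72-fold as high in library 2 as in library 1, and the long one 0.93-fold. The long transcript held most of the counts in both libraries. How reads that match both were divided was not tested.

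Ddit3 had 3 transcripts. By TPM, a protein-coding form of 600 bases led in both libraries, with 75.8% in library 1 and 44.4% in library 2. A coding form of 890 bases held 9.0% and 27.4% of the TPM. A retained-intron form of 969 bases, which is not annotated as coding, held 15.2% and 28.2%. In counts, the 600-base form had 399 and 225, the 890-base form 83.9 and 250, and the retained-intron form 159 and 288. By counts, the retained-intron form thus led in library 2. The log2 ratio of Ddit3 was 0.00 in scaled counts and -0.35 in TPM within protein-coding genes, while the shares of its transcripts differed, and the gene level includes the retained-intron form.

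Gfi1 had 5 transcripts in the tables, of which a pair held nearly all its TPM. The one of 2639 bases, from an upstream start, held 71.3% in library 1 and 27.3% in library 2. The one of 2860 bases, from a downstream start, held 26.1% and 70.4%, so the leading transcript differed between libraries. In counts the upstream form had 158 and 44.8, and the downstream form had 63.0 and 126. In the posterior mean shares, another form from the upstream start led library 1 with 37.5%, although its expected count was 0, so the split of the few Gfi1 reads among forms is uncertain. Cebpa, Cebpb, Cebpd and Cebpe had 1 transcript each.

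**Figure D3:**
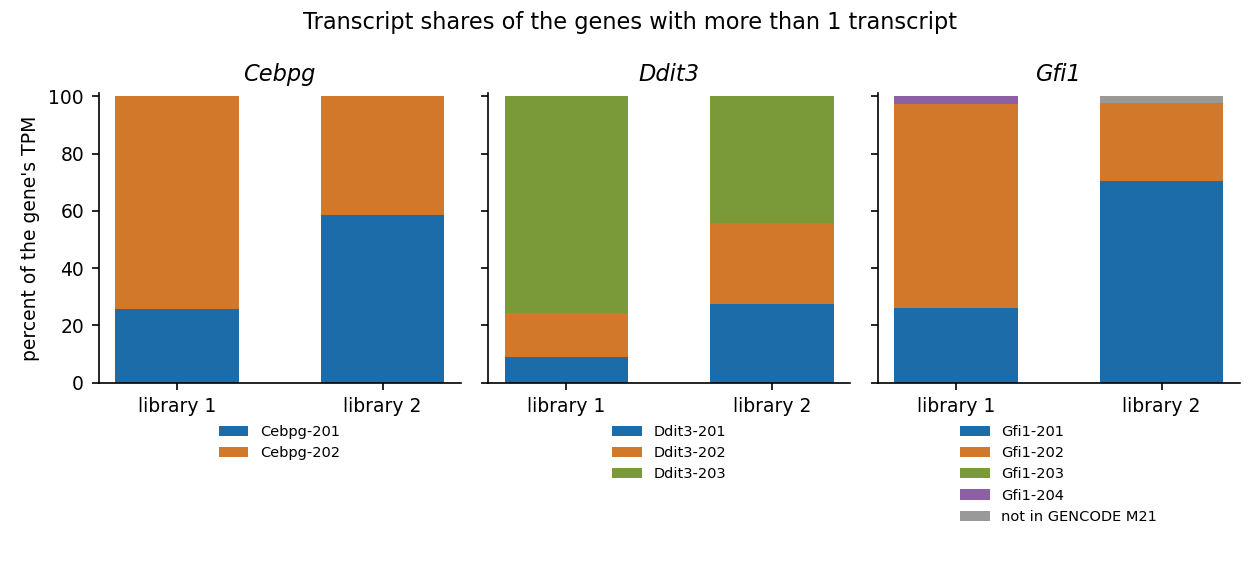
Percent of the gene's TPM held by each transcript of Cebpg, Ddit3 and Gfi1 in library 1 (left bar) and library 2 (right bar). Colours stand for transcripts by their Ensembl names. The lowest segment is the short Cebpg form (25.8% in library 1 and 58.6% in library 2), the 890-base Ddit3 form (9.0% and 27.4%) and the downstream Gfi1 form (26.1% and 70.4%).

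**Figure D4:**
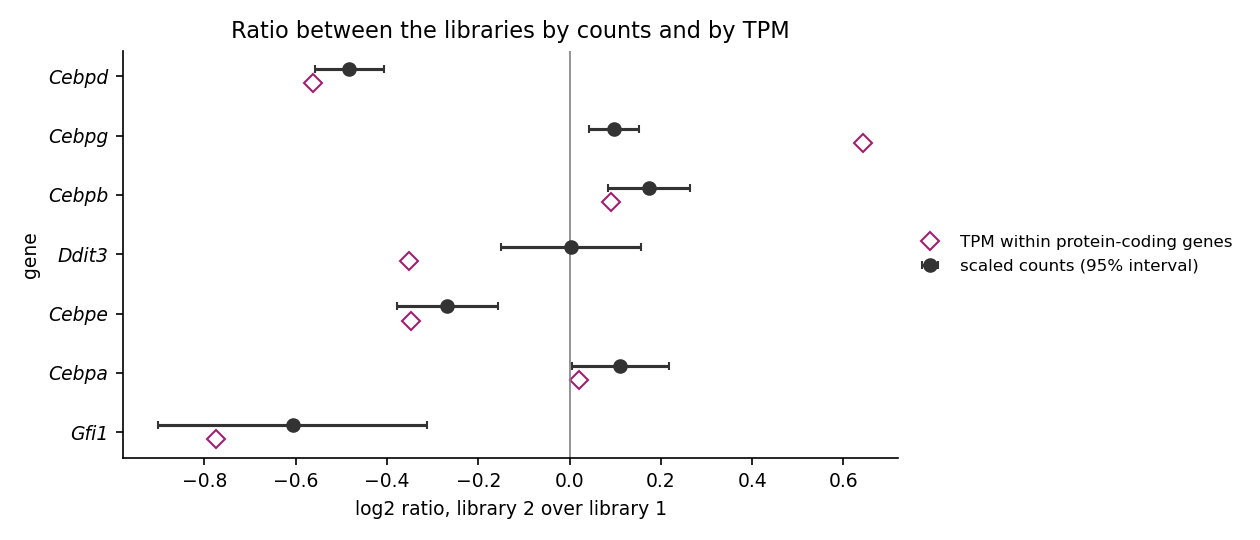
Log2 ratio of library 2 over library 1 for each gene, from scaled counts with 95% intervals (filled circles) and from TPM within nuclear protein-coding genes (open diamonds). The measures lie close for the 4 genes with 1 transcript and part for Cebpg, at 0.10 by counts and 0.64 by TPM, and for Ddit3, at 0.00 and -0.35.

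The Gfi1 forms start 1462 bases apart on chromosome 5, the upstream one at 107725805 and the downstream one at 107724343 on the minus strand. RefSeq promoters on GRCm38.p6, the build also called mm10, were found for 5 of the 7 genes. The windows shown cover the 250 bases before each start, 5′ to 3′. Capitals mark matches on either strand to TATAAA (the TATA box), CCAAT (the CCAAT box), TTGCNNAA (a C/EBP site), TGATGNAA (a composite C/EBP and ATF site) and AATCNCNGC (a Gfi1 site). The Gfi1 pair is shown because its leading start differed between libraries, and Cebpa and Cebpg because they neighbour each other.
Gfi1 upstream promoter, chr5:107725806-107726055 (- strand): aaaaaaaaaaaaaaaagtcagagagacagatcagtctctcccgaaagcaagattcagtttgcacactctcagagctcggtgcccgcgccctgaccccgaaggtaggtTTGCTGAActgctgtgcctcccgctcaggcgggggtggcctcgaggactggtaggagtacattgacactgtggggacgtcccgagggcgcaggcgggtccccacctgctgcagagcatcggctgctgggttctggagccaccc
Gfi1 downstream promoter, chr5:107724344-107724593 (- strand): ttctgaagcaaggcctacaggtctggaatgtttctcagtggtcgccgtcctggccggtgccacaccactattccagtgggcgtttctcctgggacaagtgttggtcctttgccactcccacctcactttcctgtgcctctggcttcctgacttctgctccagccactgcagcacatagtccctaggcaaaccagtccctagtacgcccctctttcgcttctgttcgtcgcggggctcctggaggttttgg
Cebpa promoter, chr7:35119043-35119292 (+ strand): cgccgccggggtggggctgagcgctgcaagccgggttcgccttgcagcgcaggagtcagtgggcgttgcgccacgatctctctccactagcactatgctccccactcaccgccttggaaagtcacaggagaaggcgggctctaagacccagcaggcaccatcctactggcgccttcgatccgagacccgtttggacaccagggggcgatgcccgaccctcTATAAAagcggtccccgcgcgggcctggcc
Cebpg promoter, chr7:35056567-35056816 (- strand): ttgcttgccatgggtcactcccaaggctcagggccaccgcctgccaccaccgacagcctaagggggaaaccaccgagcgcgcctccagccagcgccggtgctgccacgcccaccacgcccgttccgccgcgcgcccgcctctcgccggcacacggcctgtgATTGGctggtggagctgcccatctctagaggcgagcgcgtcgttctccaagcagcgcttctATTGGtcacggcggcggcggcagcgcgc
The upstream Gfi1 window held 1 match to the C/EBP motif, TTGCTGAA from 143 to 136 bases before the start, and the downstream window held no match to any of the 5 motifs. C/EBP motif matches occurred in 9.56% of all 32851 promoter windows of this length. Cebpa held a TATA box from 30 to 25 bases before its start, which 12.4% of all windows did somewhere. Cebpg held 2 CCAAT boxes and Ddit3 held 1, a motif found in 33.8% of all windows. The Cebpb window, not shown, held none of the 5 motifs. No window of the 5 genes held the composite or the Gfi1 motif, which occurred in 3.45% and 3.17% of all windows. These matches are descriptions of letters and not of binding.

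All 6 windows were richer in G and C than the median window. G and C made up 81.6% of the Cebpb window, 70.8% of Cebpg, 66.4% of Cebpa and 64.8% of Ddit3, against a median of 52.4% over all windows. For Gfi1 it was 59.2% upstream and 57.6% downstream. The coding sequences of Cebpb, Cebpa and Cebpd were likewise rich in G and C, at 73.4%, 71.9% and 70.4%, with Cebpe at 62.4%, Ddit3 at 57.1% and Cebpg at 50.7%. How far base composition changed the recovery of reads was not tested.

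A list of 14 genes was drawn up around the partners and regulators of C/EBP proteins, and it also holds Gfi1b, the Gfi1 relative. Of the 14, 9 reached 1 TPM in both libraries and the list median was 4.38 TPM. The part each gene plays for C/EBP proteins was not tested. The highest were Spi1, which encodes the myeloid master factor PU.1, at 72.0 ± 12.6 TPM, Atf4 as above, Cop1, a ubiquitin ligase that destroys C/EBPα, at 58.7 ± 1.49 and Max, the partner of MYC, at 23.7 ± 0.361 (SD, n = 2). Trib2, the adaptor that hands C/EBPα to Cop1, had 16 and 40 counts and a mean of 0.065 TPM, while its relative Trib1 had 7.48 and 6.51 TPM. Of 13 tested, 11 passed the exact binomial test, 4 of them higher in library 2, against 65.6% of all genes called. In this list and those below, such counts describe the libraries and are no result about the lists. The differences of at least 1 on the log2 scale were in Gfi1b at -1.09, Sox4 at -1.13 and Trib2 at 1.08, the last resting on few counts.

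Genes known as C/EBP targets were high. All 16 granule and receptor genes of this list passed 1 TPM in both libraries, and their median was 56.4 TPM, above each of the 7 factors. Ngp (neutrophilic granule protein) stood at 992 ± 163 TPM, Camp (cathelicidin) at 446.7 ± 33.5, Ltf (lactoferrin) at 366.8 ± 42.0 and Lcn2 (lipocalin 2) at 230.2 ± 60.9 (SD, n = 2). These 4 are genes of the later granules, and all 4 were higher in library 1, with log2 ratios from -0.26 for Camp to -0.63 for Lcn2. Other late granule genes of the list were not alike, with log2 ratios of -0.40 for Mmp9 and -0.01 for Mmp8, of which Mmp9 passed the test. The primary granule genes, which are made earlier, had -0.09 for Mpo, 0.09 for Elane, 0.05 for Ctsg and 0.06 for Prtn3, of which Mpo and Elane passed. Over the list, 12 of 16 were called, against 65.6% of all genes, and 2 of them were higher in library 2. Of the 16, 12 also belong to the neutrophil markers.

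Most corepressors that bind Gfi1 stood above Gfi1 itself. Of 8 listed genes 7 were measured, and 6 of these reached 1 TPM in both libraries, with a median of 11.1 TPM. The histone deacetylase gene Hdac2 stood at 22.8 ± 0.672 TPM and Hdac1 at 18.9 ± 0.269, the histone methyltransferase gene Ehmt2 at 19.7 ± 1.44 and Kdm1a, the lysine demethylase LSD1, at 11.1 ± 1.51 (SD, n = 2). Runx1t1 had 0 counts in both libraries. Of 6 tested, 4 were called, 2 in each direction, against 65.6% of all genes.

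Of 13 genes known to be repressed by Gfi1, 9 reached 1 TPM in both libraries and the list median was 1.75 TPM. Irf8, the monocyte and dendritic cell factor, led at 74.5 ± 4.06 TPM, followed by the helix-loop-helix inhibitors Id2 at 25.7 ± 4.04 and Id1 at 9.79 ± 0.255, and by Ets1 at 8.16 ± 0.099 (SD, n = 2). Gfi1b, the Gfi1 relative of erythroid cells and platelets, had 180 counts in library 1 and 100 in library 2, and 1.85 and 1.66 TPM. Both libraries of Gfi1b thus lay above both of Gfi1 in TPM, while in counts Gfi1 was the higher, and the effective length of Gfi1b was 969 and 529 bases against 2421 and 2532 for Gfi1. Of 13 tested, 7 were called, against 65.6% of all genes, and 4 of them were higher in library 2.

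Among 21 integrated stress response genes around Ddit3, 18 reached 1 TPM in both libraries, and the median was 10.4 TPM. The chaperone gene Hspa5 stood at 142.9 ± 13.1 TPM, Atf4 and Xbp1 as above, and Ppp1r15b, the constitutive phosphatase subunit that keeps the response low at rest, at 33.8 ± 0.368 (SD, n = 2). Trib3, a target of CHOP, had 2 and 9 counts, and Chac1, another target, 46 and 22. Atf3 was higher in library 2, with 844 and 2438 counts (log2 ratio 1.28, adjusted p = 2.9e-121, exact binomial test), while Chac1 was lower there (log2 ratio -1.31, adjusted p = 0.000748, same exact test). Of 20 tested, 18 were called, 9 in each direction, against 65.6% of all genes. Ddit3 was not among the genes called.

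The 11 myeloid and monocyte lineage factors had a median of 3.42 TPM, and 10 reached 1 TPM in both libraries. Irf8, Spi1 as above, Zeb2 at 69.7 ± 2.47 TPM and Klf4, a factor of monocyte differentiation, at 27.8 ± 1.7 (SD, n = 2) were the highest. The first 3 stood above Cebpd, the highest of the C/EBP genes, in both libraries. Of the 11 tested, 10 were called, against 65.6% of all genes, and 3 of them were higher in library 2. Among the other bZIP genes, 29 of 43 tested were called, against the same 65.6%, and 12 of them were higher in library 2. Besides Atf3, those past 1 on the log2 scale all had under 100 counts in each library. They were Fosl1, with 10 and 49 counts, Creb3l1 with 71 and 37, Creb3l3 with 46 and 26 and Nfe2l3 with 0 and 34.

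**Figure D5:**
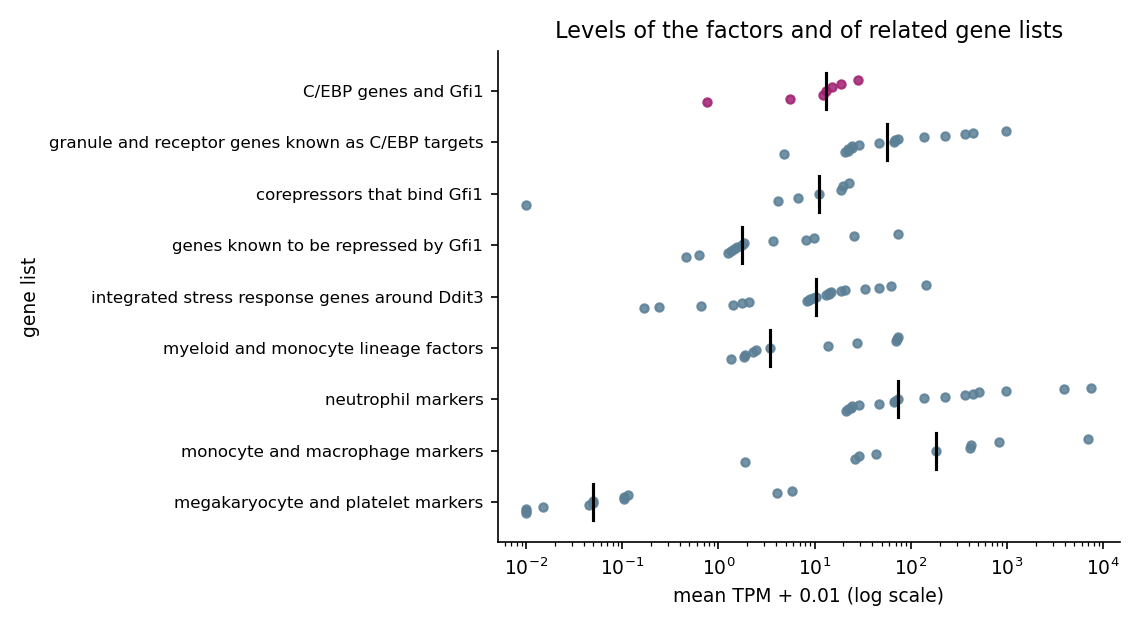
Mean TPM + 0.01 (log axis) of the 7 factors and of 8 gene lists, 1 point per gene, with a black bar at each median. The factors' median of 13.1 TPM lies under those of the C/EBP target genes, at 56.4 TPM, and the neutrophil markers, at 73.6 TPM, and above that of the megakaryocyte markers, at 0.04 TPM.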

How the data were processed

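Gene and transcript tables of 2 libraries were used. The text files deposited with them name assembly mm10 and annotation M4. No aligner or quantifier is named in the sources used here.

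The authors' deposited expected counts are estimated, unnormalized reads. The deposited TPM and FPKM values are scaled by length and depth, and the deposited percent gives each transcript's share of its gene's TPM. Symbols came from GENCODE M21 by gene ID without version, and 42462 of 43346 mouse IDs matched. A second M21 gene ID that carries the symbol Ddit3 and overlaps it was not analysed here.

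Counts were rounded and scaled with edgeR 4.0.16 (TMM) in R 4.3.3 over the 12081 nuclear protein-coding genes whose mean count reached 10. A two-sided exact binomial test of the 2 counts of each gene, with Benjamini-Hochberg adjustment at 0.05, was checked on simulated data. The simulated counts held counting error alone, so the check says nothing about the spread between samples. DESeq2 1.42.0 size factors were an alternative. Intervals are 95% Poisson or binomial and hold counting error alone: without molecular identifiers, reads need not be independent molecules. Nothing says that the libraries came from separate animals, and with 1 library a side the p-values hold no estimate of the spread between samples. Sequences came from GENCODE M21 and RefSeq. One gene of the Gfi1 corepressor list was not analysed here.

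The members and 14 gene lists were chosen with earlier results of these data known. The text names the 7 genes, the 4 highest of each list (the highest 1 for cell type markers), called list genes with a log2 ratio of 1 or more, and the 2 nearest genes in level. Named outside this rule, after their values were seen, were Trib1, Trib3, Runx1t1, Mmp8, Mmp9, Mpo, Elane, Ctsg, Prtn3 and S100a9.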

Additional observations from a re-analysis of the deposited data

How the results depend on the processing

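Nuclear protein-coding genes held 24.0% and 26.8% of TPM in libraries 1 and 2. With TPM rescaled within them, all 7 members reached 1 TPM, Gfi1 at 3.04 and Cebpd at 112 TPM, against 6 in deposited TPM. Of the 21 pairs of members, 21 kept their order with posterior mean TPM or FPKM, 17 with expected counts not divided by length, and from 18 to 21 with either library alone. The 5 calls between libraries fell to 0 at an assumed BCV of 0.1 and numbered 5 under DESeq2 size factors, total counts and both other count filters. Ddit3, which was not called, turned to a log2 ratio of -0.013 with total counts and of -0.0020 with a mean count of at least 100, with adjusted p from 0.9 to 1 over all settings of the exact tests. By counts in place of TPM, 2 members again had a differing leading transcript, but Ddit3 and Gfi1 in place of Cebpg and Gfi1. At 5 TPM, 4 genes repressed by Gfi1, 5 lineage factors, 1 megakaryocyte, 0 B cell and 2 T and NK cell markers passed. No paired analysis was possible because there is a single group. The cause of these changes was not tested. Depth limits Gfi1 most, at 222 and 173 counts.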

Other observations

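The gap between count and TPM ratios seen in Cebpg was measured over 10175 nuclear protein-coding genes whose mean count reached 100. After removal of the median shift of -0.09 on the log2 scale, the ratio in TPM within protein-coding genes and the ratio in scaled counts differed by at least 1.5-fold in 404 genes, or 3.97%. Cebpg is 1 of the 404, with a gap of 0.64, and Gfi1b is another, with 0.87. In 106 of the 404 genes the called count ratio and the TPM ratio had opposite signs.

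Egr2, a factor of the monocyte line that Gfi1 represses, is a low-count example that was chosen after its values were seen. It had 96 counts in library 1 and 58 in library 2, but 3.3 and 0.39 TPM, as its deposited effective length was 291 bases in library 1 and 1304 in library 2.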
